A study of Mus musculus with 8 samples.

Results

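The genes described here are the 4 VEGF ligand genes Vegfa, Vegfb, Vegfc and Pgf, the 3 VEGF receptor genes Flt1, Kdr and Flt4, and the 2 neuropilin genes Nrp1 and Nrp2. They were chosen by name, each had 1 probe set, and they make up 9 of the 22180 genes that a probe set with a single symbol represented. Their expression was measured in CD45-CD31+ brain endothelial cells (BECs), which are cells that lack the leukocyte antigen CD45 and carry the endothelial antigen CD31. The BECs came from male FVB/NJ mice aged 12 weeks, 24 h after a subarachnoid haemorrhage (SAH) or a sham procedure. The 4 SAH mice received 80 μL of blood through a needle placed in front of the optic chiasm, and the 4 Sham mice had the burr hole and the needle but no blood. The labels give no other difference between the groups, and 1 Affymetrix Mouse Gene 2.0 ST array was run per animal.

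The cells were isolated with magnetic beads from the left cerebral hemisphere after removal of the meninges and the large surface vessels, and their RNA was amplified before hybridization, so each array reads a bulk mixture of the endothelium of small vessels and of any cells that came along. Values are log2 intensities after robust multi-array average (RMA) normalization, with array medians of 4.23 to 4.30. The 16 pan-endothelial markers averaged 9.80 to 9.90 over the SAH arrays and 9.90 to 9.99 over the Sham arrays, while the neuronal list averaged 4.45 to 4.64 on SAH arrays and 4.58 to 4.74 on Sham arrays. The neuronal list includes Stmn2, which is also on the list of arterial endothelial markers. It was the 1 gene of the neuronal list that was lower in SAH, at 6.36 to 6.90 against 7.66 to 8.45 in Sham, and none was higher. Pecam1, which encodes CD31, read 10.59 to 10.77 in SAH and 10.21 to 10.34 in Sham. Ptprc, which encodes CD45, lay below its array's median on all 8 arrays, at 3.16 to 4.23 in SAH and 2.64 to 3.21 in Sham. Of the 19 measured microglia and macrophage markers, 4 were higher in SAH (Ctss, Tyrobp, Fcer1g and C1qc), and the mean of the list was 5.34 to 5.77 on SAH arrays and 4.93 to 5.18 on Sham arrays. Of 9 neutrophil markers 2 were higher in SAH (S100a8 and S100a9), and the median change of that list was 0.13. Also higher were 1 of 11 pericyte markers (Kcnj8) and 1 of 8 fibroblast markers (Dcn). Over all probe sets, 1.9% were higher in SAH by the same test, which is given below. The pericyte list averaged 7.76 to 8.22 on SAH arrays and 7.47 to 7.80 on Sham arrays. Its brightest gene, Rgs5, read 11.69 to 11.89 in SAH and 11.63 to 11.79 in Sham. The list of choroid plexus and ependyma averaged 5.60 to 6.09 on SAH arrays and 5.38 to 5.68 on Sham arrays. Ttr of that list read 10.43 to 11.54 in SAH and 9.91 to 10.77 in Sham. The part that such cells play in the values given for the VEGF genes was not tested.

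VEGF signalling controls how blood vessels grow, how permeable they are and how endothelial cells survive. VEGF-A binds the receptor kinases FLT1 (VEGF receptor 1) and KDR (VEGF receptor 2), of which KDR carries most of the signal in blood vessel endothelium and FLT1 binds the ligand tightly but signals weakly. VEGF-B and placental growth factor (PlGF, the product of Pgf) bind FLT1, VEGF-C acts on FLT4 (VEGF receptor 3) and, after proteolytic processing, also on KDR, and the neuropilins are co-receptors that they share with the class 3 semaphorins. In the adult brain VEGF-A comes mainly from astrocytes and other cells outside the vessel wall, FLT4 is best known from lymphatic endothelium, and a rise in VEGF-A is a known cause of leakage of the blood-brain barrier.

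Kdr and Vegfc were lower in BECs after SAH, to 58.3% and 48.1% of the Sham intensity, and no member of the family was significantly higher. Flt1 and Vegfa differed by 0.02 or less on the log2 scale. Pgf and Flt4 had higher values on every SAH array than on every Sham array but did not pass the threshold, which was an adjusted p under 0.05 in the moderated test of limma over 25341 probe sets. In bulk RNA fewer cells of a type and less RNA per cell cannot be told apart, so a lower value does not say which of these occurred. Over all probe sets tested, 482 were higher in SAH (1.9%) and 325 were lower (1.28%), against 0 and 2 of the 9 members. The 4 SAH arrays lay above all Sham arrays at 1144 probe sets (4.51%) and below all of them at 1134 probe sets (4.47%), against 2 members on either side. The median change of the 9 members was -0.02, the same as that of all probe sets tested.

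**Figure D1:**
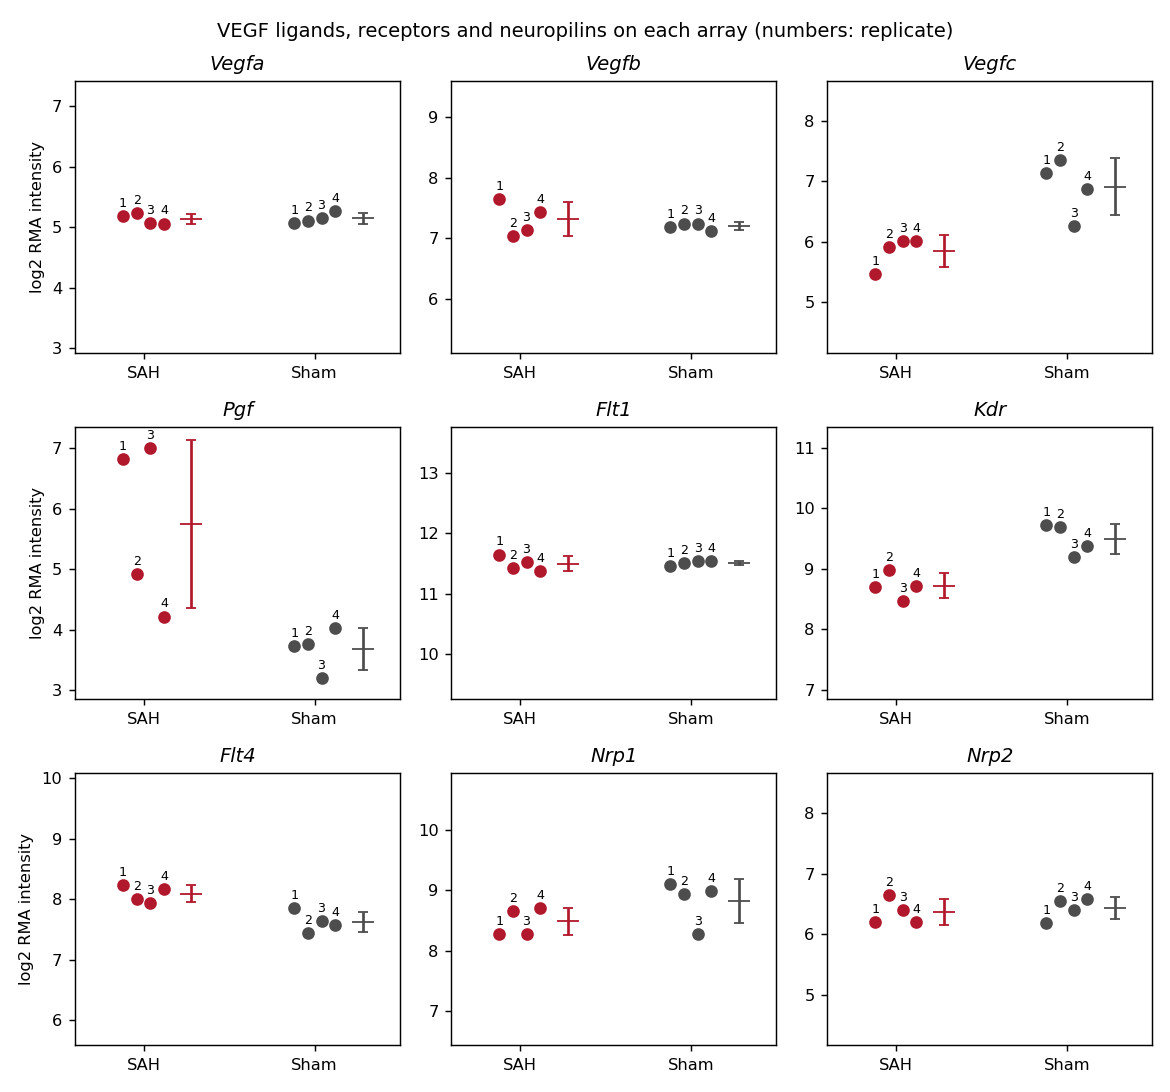
Log2 RMA intensity (vertical axis, every panel spans the same range) of the 9 genes on each of the 4 SAH arrays (left, red) and 4 Sham arrays (right, grey), numbered by replicate, with mean and SD beside the points. Vegfc and Kdr are lower on every SAH array than on any Sham array, Pgf and Flt4 are higher on every SAH array, and Pgf is spread over 4.22 to 7.01 in SAH.

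Among the ligands, Vegfc encodes VEGF-C, which in mice is required for the growth of lymphatic vessels. Its log2 intensity was 5.47, 5.91, 6.01 and 6.02 on the SAH arrays and 7.14, 7.35, 6.27 and 6.88 on the Sham arrays. The groups did not overlap, but the highest SAH arrays came close to Sham replicate 3, which was the lowest of its group. The means were 5.85 ± 0.26 in SAH and 6.91 ± 0.47 in Sham (SD, n = 4 each). The change was -1.06 (SE 0.21, 95% confidence interval -1.53 to -0.59, adjusted p = 0.0234), which is 48.1% of the Sham intensity (34.7% to 66.7%). The call was lost without SAH replicate 1 or without Sham replicate 1, 2 or 4, with a highest adjusted p of 0.0692, whereas without Sham replicate 3 the adjusted p was 0.00599.

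Vegfc is itself on the list of arterial endothelial markers, of which 2 of 10 were higher (Mgp and Dll4) and 3 were lower (Gkn3, Stmn2 and Vegfc). Gkn3, which marks arterial endothelium of the mouse brain, changed by -2.30 and Stmn2, which is also on the neuronal list, by -1.43. The mean of the list was 6.97 to 7.31 on SAH arrays and 7.34 to 7.74 on Sham arrays, and how far the share of arterial cells moved with Vegfc was not tested. The 5 genes most like Vegfc in their pattern, by Pearson's r over the 8 arrays among 11080 genes, were Pcca, which encodes a subunit of propionyl-CoA carboxylase (r = 0.987), Zfp763, Etl4, 4930474M22Rik and Trerf1 (r = 0.966). Pcca was 7.11 to 7.57 on SAH arrays and 7.70 to 8.26 on Sham arrays, with Sham replicate 3 again lowest in its group. These r values come from the same 8 arrays, in which the group difference is part of every pattern.

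The stretch before the start of Vegfc is shown because this ligand carries the largest called change of the family. It is the RefSeq window of 250 bases upstream of the start in GRCm38.p6, chr8:54077282-54077531 on the plus strand, printed 5′ to 3′. Capitals mark the core letters GGAA of sites for ETS factors, the family of transcription factors that many endothelial genes use, or their complement TTCC.
Vegfc: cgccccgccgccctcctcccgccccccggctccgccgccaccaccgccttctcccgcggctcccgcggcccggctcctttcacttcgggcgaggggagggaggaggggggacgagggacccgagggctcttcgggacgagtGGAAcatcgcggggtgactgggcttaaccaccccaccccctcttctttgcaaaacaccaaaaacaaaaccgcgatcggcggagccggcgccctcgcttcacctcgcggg
The window held 1 such core, against a median of 3 over all 32851 promoter windows of this length, of which 93.4% held at least 1 on either strand. A match is a description of the letters, and these 4 letters are common.

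Pgf encodes PlGF, a ligand of FLT1 that is scarce in most healthy adult tissues. Its log2 intensity was 6.83, 4.92, 7.01 and 4.22 on the SAH arrays and 3.73, 3.76, 3.2 and 4.03 on the Sham arrays. All 4 Sham values were below the medians of their arrays, SAH replicates 1 and 3 were high, and SAH replicate 4 stood just above the highest Sham array. The change of 2.07 (SE 0.53, 95% confidence interval 0.90 to 3.23) was the largest of the 9 in size, or 4.19-fold (1.87 to 9.40), and its adjusted p was 0.0657. Since the Sham values lie at the dim end of the array, where RMA compresses differences, the fold is uncertain on that side. Without SAH replicate 4 the change was 2.58 and the adjusted p 0.0118, and without SAH replicate 3 they were 1.65 and 0.155. When only the probe sets with a mean above the median were tested, 546 of 13894 were higher (3.93%) and Pgf was among them (adjusted p = 0.0453). The mean of its Sham values alone, 3.68, would not have passed that filter. Pgf thus entered this subset only through its SAH arrays, and the pass is no support for the change.

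The SAH arrays that were high in Pgf were also high in Hmox1, which encodes haem oxygenase 1, the enzyme that breaks down haem. Hmox1 was the gene most like Pgf (r = 0.981), at 8.20, 7.47, 7.98 and 7.24 on the SAH arrays and 7.12, 7.0, 7.01 and 7.15 on the Sham arrays. The order of the SAH arrays was not quite the same, with replicate 1 highest in Hmox1 and replicate 3 highest in Pgf. Hmox1 itself did not pass the threshold (change 0.65, adjusted p = 0.10). The next were Donson, a replication fork protein, Tfpi2, a protease inhibitor, Slc16a6 and Asphd1 (r = 0.951). Donson was higher in SAH (change 1.09, adjusted p = 0.00851), as was Slc16a6 (0.80, 0.0284). The pattern rests on 2 SAH arrays, and the correlations are given as a description over 8 arrays.

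**Figure D2:**
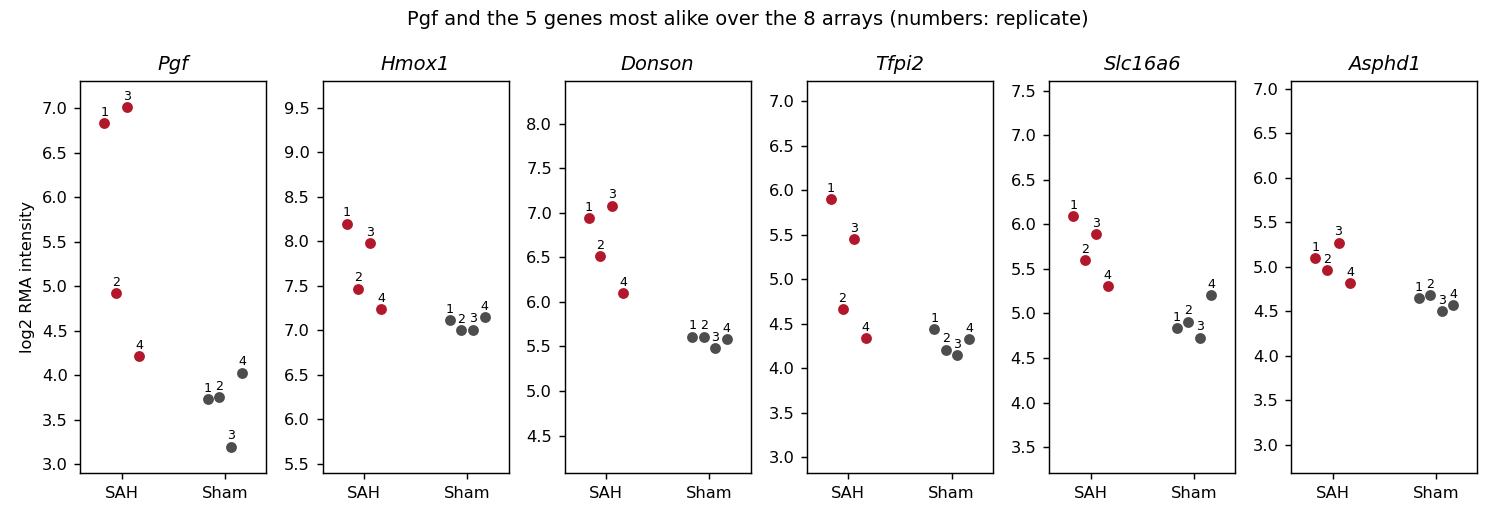
Log2 RMA intensity (vertical axis, every panel spans the same range) of Pgf and of the 5 genes with the highest Pearson r to it, on the 4 SAH arrays (left, red) and the 4 Sham arrays (right, grey), numbered by replicate. In each panel SAH replicates 1 and 3 are the highest arrays and SAH replicate 4 is the lowest of its group, as for Pgf at 6.83, 7.01 and 4.22.

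Pgf is also on the list of tip cell markers, genes of the leading cells of vessel sprouts. Of its 10 genes, 5 were higher in SAH (Plaur, Angpt2, Apln, Adm and Kcne3) and none was lower. The mean of the list was 6.27 to 7.06 on SAH arrays and 5.17 to 5.79 on Sham arrays. Esm1 and Cxcr4, which are markers of the same cells, gave changes of -0.16 and 0.12 with adjusted p-values of 0.776 and 0.837. On 8 of the 10 genes, Pgf included, all SAH arrays were above all Sham arrays, and the median change of the list was 0.92.

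The remaining ligands showed no detectable change. Vegfa, the founding member, read 5.18, 5.23, 5.07 and 5.06 in SAH and 5.07, 5.11, 5.15 and 5.27 in Sham, with the groups interleaved. The change was -0.01 with a 95% confidence interval of -0.22 to 0.20 (adjusted p = 0.977), and the interval spans 85.6% to 115% of the Sham intensity. All Vegfa values lay below log2 6, so compression at low intensity may make this interval too narrow for the RNA. Vegfb, a ligand of FLT1 known for its part in the survival of cells and in fatty acid uptake, read 7.65, 7.04, 7.13 and 7.43 in SAH and 7.19, 7.24, 7.24 and 7.12 in Sham. The SAH arrays were spread on both sides of the Sham arrays (change 0.11, 95% confidence interval -0.18 to 0.41, adjusted p = 0.794).

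Of the receptors, Kdr encodes the main signalling receptor for VEGF-A. It read 8.70, 8.98, 8.47 and 8.71 in SAH and 9.72, 9.69, 9.20 and 9.37 in Sham. Every SAH array was below every Sham array, and the nearest pair was SAH replicate 2 and Sham replicate 3. The means were 8.72 ± 0.21 in SAH and 9.49 ± 0.25 in Sham (SD, n = 4 each), a change of -0.78 (SE 0.15, 95% confidence interval -1.10 to -0.46, adjusted p = 0.0163), or 58.3% of the Sham intensity (46.5% to 72.9%). The adjusted p was just above 0.05 without SAH replicate 3 (0.0524) or Sham replicate 2 (0.0523) and stayed below it without any other single array.

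Flt1 encodes the receptor that takes up VEGF-A, VEGF-B and PlGF and, as a soluble form, holds them away from KDR. The array does not separate the soluble form from the membrane form. Flt1 read 11.65, 11.43, 11.53 and 11.37 in SAH and 11.46, 11.51, 11.54 and 11.54 in Sham. The Sham arrays fell inside the range of the SAH arrays, and the change was -0.02 (95% confidence interval -0.23 to 0.20, adjusted p = 0.967). Flt4, the receptor for VEGF-C, read 8.24, 8.0, 7.94 and 8.17 in SAH and 7.85, 7.44, 7.64 and 7.57 in Sham. All SAH values were above all Sham values, the nearest being SAH replicate 3 and Sham replicate 1, with means of 8.09 ± 0.14 in SAH and 7.62 ± 0.17 in Sham (SD, n = 4 each). The change was 0.46 (SE 0.12, 95% confidence interval 0.20 to 0.72) and 1.38-fold, with an adjusted p of 0.0647 over all probe sets, 0.0458 over those above the median and 0.0262 over those with a mean above 6. Prox1 and Lyve1, which are on the list of lymphatic markers, gave 2.76 to 3.15 and 5.10 to 5.21 on SAH arrays, and 2.74 to 3.05 and 4.82 to 5.05 on Sham arrays. Flt4 is itself 1 of the 6 measured lymphatic markers, none of which passed the threshold. Lyve1 was higher on every SAH array than on every Sham array (change 0.24, adjusted p = 0.266), and Prox1 was below the array median throughout. Which cells carried Lyve1 was not tested.

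**Figure D3:**
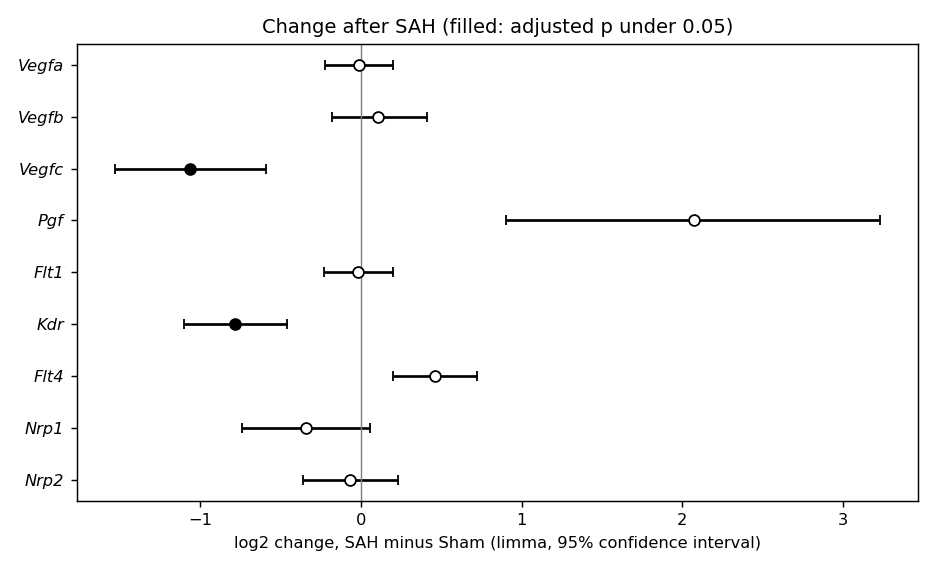
Log2 change, SAH minus Sham (horizontal axis), of the 9 genes with the 95% confidence interval from limma over 4 SAH and 4 Sham arrays; filled points passed an adjusted p of 0.05. Vegfc at -1.06 and Kdr at -0.78 are filled, while the intervals of Pgf and Flt4 lie above 0 without passing the adjustment.

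Whether the 3 receptors changed by different amounts was tested on the difference of their log2 values within each array. Kdr minus Flt1 was -2.94, -2.46, -3.06 and -2.66 in SAH and -1.74, -1.83, -2.35 and -2.16 in Sham. It was thus lower on every SAH array, by 0.76 on average. Kdr minus Flt4 was 0.47, 0.98, 0.53 and 0.54 in SAH and 1.88, 2.25, 1.56 and 1.80 in Sham, a shift of -1.24. Flt1 minus Flt4 was 3.41, 3.43, 3.60 and 3.2 in SAH and 3.61, 4.07, 3.91 and 3.96 in Sham, a shift of -0.48 in which SAH replicate 3 and Sham replicate 1 nearly met. Each of these 3 shifts had p = 0.0286 in a two-sided exact permutation test over 70 splits, the smallest p the design can give, and an adjusted p of 0.0381 over the 4 differences tested. Kdr was lower and Flt4 higher on every SAH array, so Kdr minus Flt4 had to separate and its p was set before the test. Because Flt1 changed little, the other 2 differences largely repeat the separations of Kdr and of Flt4 already seen. None of the 3 p-values is therefore further support, and the change of Flt4 itself did not pass in limma (adjusted p = 0.0647). The 3 receptor differences are also not independent, as each follows from the other 2, and the members were chosen with earlier results known. As a description over all 8 arrays, the shifts put Kdr lowest and Flt4 highest relative to the others. With 1 array left out, the adjusted p of the exact test lay between 0.0381 and 0.0762. It was below 0.05 in 2 of 8 cases for each receptor pair, while the direction of the shift stayed. Fewer splits exist with an array left out, so the p moves in coarse steps and the count of cases under 0.05 depends on these steps. A level of one probe set cannot be set against that of another, so these differences say how the balance moved and not which receptor was more abundant.

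**Figure D4:**
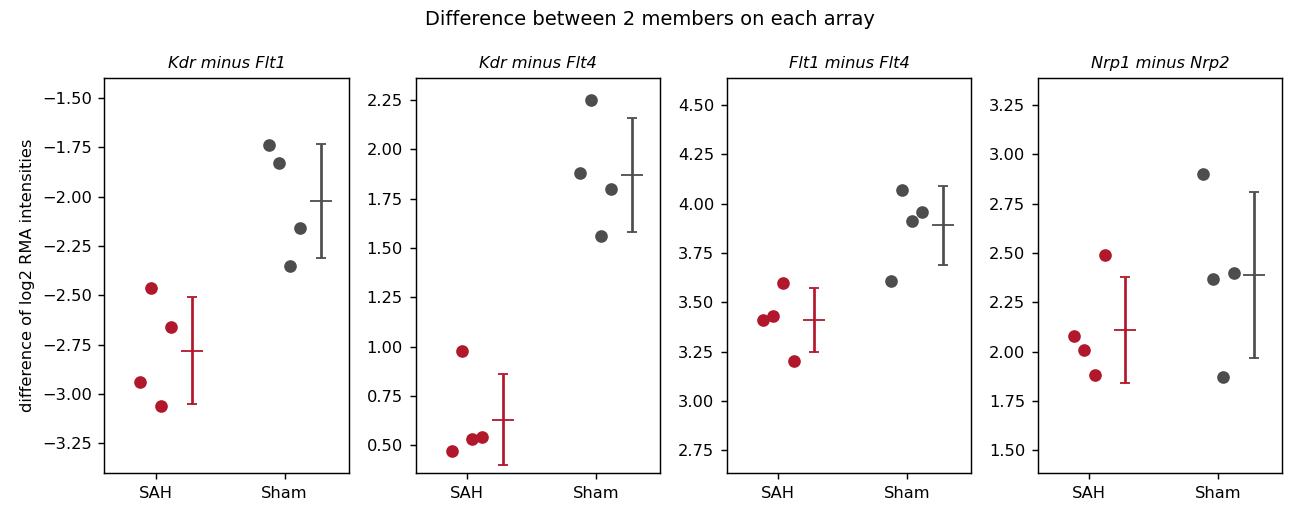
Difference of the log2 RMA intensities of 2 members on the same array (vertical axis, every panel spans the same range), for the 4 SAH arrays (left, red) and the 4 Sham arrays (right, grey), with mean and SD. The 3 receptor differences are lower on every SAH array than on any Sham array, while Nrp1 minus Nrp2 overlaps between the groups.

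A window before an annotated transcript start of each of the 3 receptor genes is shown because the 3 genes belong to 1 family and gave 3 different changes. They lie at chr5:75978456-75978705 on the minus strand for Kdr, chr5:147726012-147726261 on the minus strand for Flt1 and chr11:49609429-49609678 on the plus strand for Flt4 (RefSeq, GRCm38.p6), each 250 bases long and printed 5′ to 3′ on the strand of the gene, with the ETS core GGAA or TTCC in capitals. The windows of Kdr and Flt1 lie inside the RefSeq spans of these genes, which begin further upstream, whereas that of Flt4 ends where its gene begins.
Kdr: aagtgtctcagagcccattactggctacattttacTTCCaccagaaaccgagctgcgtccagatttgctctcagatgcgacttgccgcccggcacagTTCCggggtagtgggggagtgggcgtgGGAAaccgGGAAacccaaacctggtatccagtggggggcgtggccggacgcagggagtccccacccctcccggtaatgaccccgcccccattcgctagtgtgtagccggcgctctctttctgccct
Flt1: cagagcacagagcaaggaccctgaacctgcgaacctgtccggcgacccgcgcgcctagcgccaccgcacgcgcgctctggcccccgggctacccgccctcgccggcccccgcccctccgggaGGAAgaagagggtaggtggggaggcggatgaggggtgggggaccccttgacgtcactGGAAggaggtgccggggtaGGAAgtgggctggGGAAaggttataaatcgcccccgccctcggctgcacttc
Flt4: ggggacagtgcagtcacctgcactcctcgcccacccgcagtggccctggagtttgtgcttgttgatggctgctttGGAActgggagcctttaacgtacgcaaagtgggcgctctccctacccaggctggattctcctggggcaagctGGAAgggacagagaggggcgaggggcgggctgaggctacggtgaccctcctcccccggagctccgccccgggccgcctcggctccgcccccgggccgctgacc
Kdr and Flt1, of which 1 was lower after SAH and the other was not, both held 4 ETS cores, and Flt4 held 2. The core of a hypoxia response element (ACGTG or GCGTG, either strand) stood 2 times in the Kdr window, 1 time in that of Flt1 and not in that of Flt4, and 38.6% of all windows held at least 1. The GC box GGGCGG was found 2 times before Kdr and 3 times before Flt1 and Flt4, and in 32.7% of all windows. All 9 members had at least 1 window, and none of these counts says that a factor was bound.

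Kdr was lower together with markers of capillary endothelium, the vessel type from which most BECs come. Of that list of 10 genes, 7 were lower in SAH (Alpl, Cxcl12, Spock2, Tfrc, Slc22a8, Car4 and Mfsd2a) and none was higher, and the mean of the list was 8.86 to 9.12 on SAH arrays and 10.07 to 10.34 on Sham arrays. Of the 16 pan-endothelial markers, Tek and Slco1a4 were lower and none was higher. Tek, the receptor for the angiopoietins, changed by -0.99 (adjusted p = 0.00658), whereas the vascular cadherin gene Cdh5 gave 0.22 (adjusted p = 0.337) and Pecam1 gave 0.37 (adjusted p = 0.0673). Of 9 venous markers, 3 were higher in SAH (Ackr1, Selp and Lcn2) and 1 was lower (Slc38a5). The mean of the venous list was 8.82 to 9.19 on SAH arrays and 7.02 to 8.06 on Sham arrays. Ackr1, Selp and Lcn2, with changes of 5.20, 4.21 and 3.71, weigh heavily in that mean. The 5 venous markers that did not pass changed by -0.23 (Ephb4) to 1.07 (Vcam1), with Nr2f2 at 0.13. What part the capillary or venous genes have in the value of Kdr was not tested. The genes most like Kdr over the 8 arrays were Llgl1, a cell polarity gene (r = 0.977), Tmtc2, Efr3b, Maob, which encodes monoamine oxidase B, and Tm7sf3 (r = 0.969). Efr3b was 7.07 to 7.42 on SAH arrays and 8.31 to 8.98 on Sham arrays (change -1.35, adjusted p = 0.00196). The group difference is again part of these correlations.

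The co-receptors did not pass the threshold. Nrp1, which presents VEGF-A to KDR, read 8.28, 8.66, 8.28 and 8.70 in SAH and 9.10, 8.93, 8.28 and 8.98 in Sham. Sham replicate 3 was as low as the lowest SAH arrays, while the other Sham arrays were above all SAH arrays. The change was -0.34 (95% confidence interval -0.74 to 0.06, adjusted p = 0.446), and without Sham replicate 3 it was -0.52 (adjusted p = 0.103). That animal was also the lowest of its group for Vegfc, Kdr and Pgf. Nrp2, which binds VEGF-C as well as semaphorins, read 6.20, 6.66, 6.40 and 6.20 in SAH and 6.19, 6.55, 6.41 and 6.59 in Sham, and the groups overlapped fully (change -0.07, 95% confidence interval -0.36 to 0.23, adjusted p = 0.885). Nrp1 minus Nrp2 shifted by -0.27 with p = 0.371 in the exact permutation test, so a difference between the co-receptors was not shown.

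Around the family, 8 lists held 154 genes of the VEGF pathway and of related families, of which 147 were measured. The related families are the semaphorins and plexins and the PDGF ligands and class III receptor kinases. Of these, 16 were higher in SAH (10.9%) and 8 were lower (5.44%), against 1.9% and 1.28% of all probe sets tested. The lists were written with earlier results of these arrays known, so these shares describe the genes chosen. The median change over the 147 genes was 0.05, against -0.02 over all probe sets tested.

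Of the 22 genes that VEGF is known to induce in cultured endothelial cells, 8 rose, 2 fell and 12 did not pass, with a median change of 0.34. The largest was Sele, the endothelial adhesion molecule E-selectin, which read 8.50, 8.82, 9.18 and 7.19 in SAH and 4.54, 4.16, 4.26 and 6.12 in Sham (change 3.65, adjusted p = 0.00196). The groups were apart, although Sham replicate 4 was above and SAH replicate 4 below the rest of its group. Ptgs2 (cyclooxygenase-2) rose by 2.76 and Plaur, the urokinase receptor, by 2.64. Angpt2, the ligand that opposes angiopoietin-1 at TEK, rose by 2.36 and read 9.26, 9.20, 9.44 and 8.34 in SAH and 7.30, 6.36, 5.88 and 7.28 in Sham. Apln, the apelin precursor, rose by 2.18, Stc1 by 1.84, Icam1 by 0.85 and the Notch ligand Dll4 by 0.79. Most of these genes also respond to inflammatory cytokines, and the list does not separate the stimuli.

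None of the immediate early genes of this list (Egr1, Egr2, Egr3, Nr4a1, Nr4a2 and Nr4a3) rose. Nr4a1, an orphan nuclear receptor and early response gene, read 9.62, 9.07, 9.10 and 9.26 in SAH and 9.79, 9.75, 10.09 and 10.01 in Sham, so that all SAH values were lower (change -0.65, adjusted p = 0.0316). Nr4a2, its relative, fell by 0.61 (adjusted p = 0.037). Egr1 changed by 0.05, Egr3 by 0.31 and the calcineurin regulator Rcan1 by 0.48, none of which passed (adjusted p-values of 0.153 and above). The authors do not exclude that isolating the cells itself altered expression, and its part in the values of these genes was not tested.

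**Figure D5:**
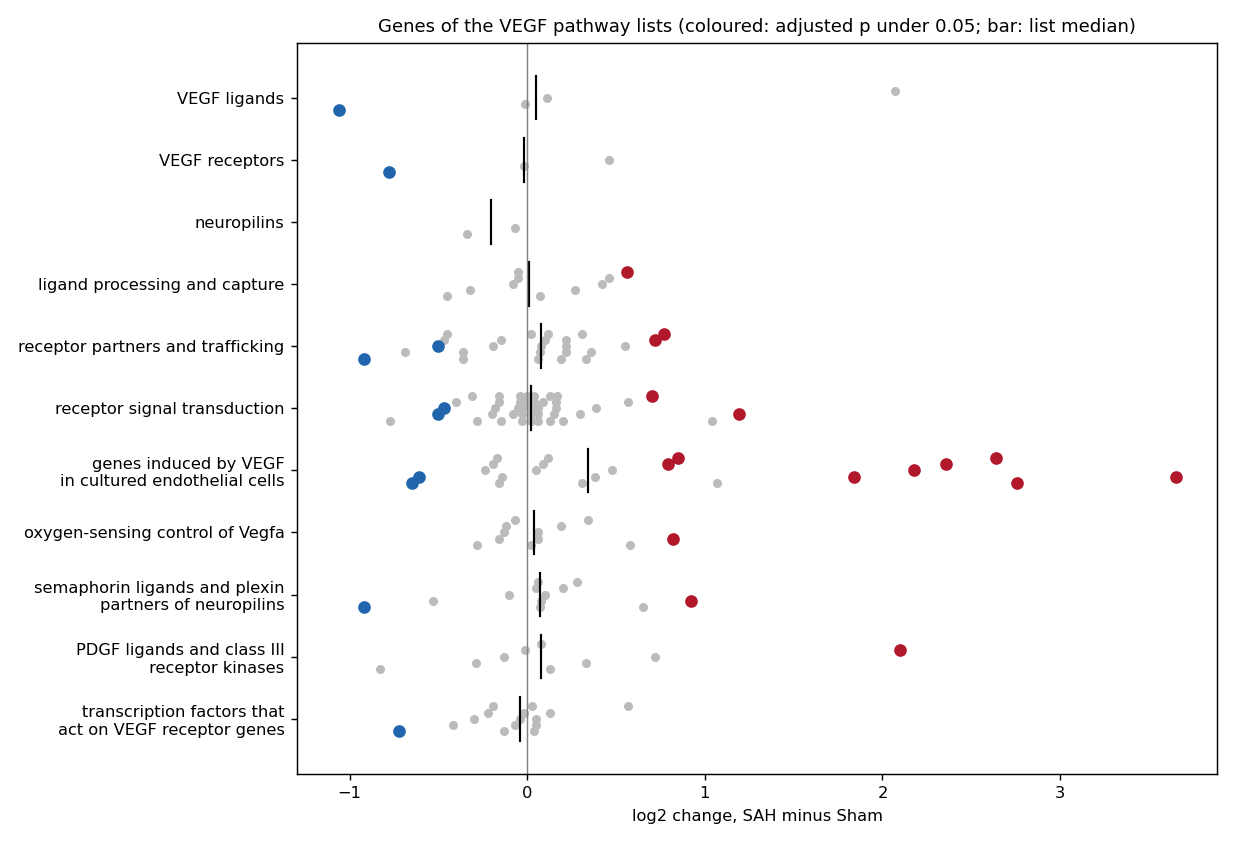
Log2 change, SAH minus Sham (horizontal axis), of each measured gene of the 3 member groups and the 8 pathway lists (rows), with genes past an adjusted p of 0.05 in red (higher) or blue (lower), the others in grey and a bar at the median of the list; points are offset vertically for legibility only. Most called genes of large change belong to the list of genes induced by VEGF in cultured endothelial cells, whose median is 0.34, while the median of the signal transduction list is 0.02.

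Downstream of the receptors, 42 of 49 signal transduction genes were measured and the other 7 were not analysed here. Of the 42, 2 rose (Spry4 and Mapkapk2), 2 fell (Plcg1 and Gab1) and 38 did not pass, with a median change of 0.02. Plcg1 encodes phospholipase C gamma 1, the enzyme that KDR engages directly to reach protein kinase C and ERK. It read 8.0, 7.85, 7.91 and 8.19 in SAH and 8.49, 8.31, 8.49 and 8.52 in Sham (change -0.47, adjusted p = 0.0407). Gab1, an adaptor of the PI3 kinase branch, fell by 0.50 (adjusted p = 0.0489). Spry4, a feedback inhibitor of receptor kinase signalling, read 7.86, 6.87, 7.11 and 7.48 in SAH and 6.68, 5.80, 5.96 and 6.11 in Sham (change 1.19, adjusted p = 0.0169). Mapkapk2, the kinase below p38 in stress and migration signalling, rose by 0.70 (adjusted p = 0.00783). Nos3, the endothelial nitric oxide synthase gene, gave a change of 0.06 (adjusted p = 0.918).

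Among 25 genes for partners and trafficking of the receptors, 2 rose, 2 fell and 21 did not pass, with a median change of 0.08. Cav1, the coat protein of caveolae in which KDR resides, read 6.95, 7.04, 6.77 and 6.78 in SAH and 7.83, 8.11, 7.62 and 7.68 in Sham. The groups were well apart, and the change was -0.92 (SE 0.13, adjusted p = 0.00266). Myo6, the motor that carries internalised receptor vesicles, fell by 0.50 (adjusted p = 0.0389). Mcam, the co-receptor CD146, rose by 0.77 (adjusted p = 0.037) and Itgb3, the beta 3 integrin subunit that associates with KDR, by 0.72 (adjusted p = 0.0161). Ptprb, the phosphatase VE-PTP, was below all Sham arrays on all SAH arrays but gave a change of -0.36 with an adjusted p of 0.101.

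Of the 10 genes that process or capture the ligands, only Adamts1 passed in this fit. ADAMTS1 is a secreted protease that binds VEGF-A and keeps it from KDR. It read 9.95, 9.70, 9.72 and 9.82 in SAH and 9.14, 9.13, 9.24 and 9.45 in Sham, with no overlap (change 0.56, adjusted p = 0.0203). Thbs1, a matrix protein that binds VEGF-A, gave a change of 0.46 (adjusted p = 0.41), and Vegfd, which encodes a further ligand of FLT4, gave -0.45 (adjusted p = 0.134). Ccbe1 and Adamts3, which activate VEGF-C, gave -0.08 and -0.05 and did not pass.

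Of the 12 genes that control Vegfa by oxygen sensing, 1 passed. Hif1a, the inducible subunit of the hypoxia factor, read 8.45, 9.13, 8.85 and 8.16 in SAH and 7.54, 7.91, 7.88 and 7.99 in Sham (change 0.82, adjusted p = 0.0459). All SAH arrays were above all Sham arrays for this transcript, whereas the interval for Vegfa, a target of the factor, was -0.22 to 0.20. Epas1, the endothelial relative HIF-2 alpha, gave -0.12 (adjusted p = 0.677) and Hif3a gave 0.58 (adjusted p = 0.185).

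Of the 12 semaphorins and plexins that work with the neuropilins, 1 rose and 1 fell. Sema3f, a ligand of NRP2, read 6.71, 6.74, 6.53 and 6.80 in SAH and 5.49, 6.00, 5.62 and 5.97 in Sham (change 0.92, adjusted p = 0.00397). Sema3c read 9.11, 9.53, 9.38 and 8.44 in SAH and 10.05, 10.05, 10.19 and 9.85 in Sham (change -0.92, adjusted p = 0.0338). The groups were apart in both genes, which moved by the same amount in opposite directions.

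Of the 9 PDGF ligands and class III receptor kinases, the closest relatives of the VEGF family, Kit was the 1 gene that passed. It encodes the stem cell factor receptor and read 7.30, 6.93, 7.13 and 6.54 in SAH and 5.24, 4.59, 4.54 and 5.12 in Sham (change 2.10, adjusted p = 0.000306). Pdgfd gave -0.83 (adjusted p = 0.107) and Csf1r, which is also a microglial marker, gave 0.72 (adjusted p = 0.131).

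Of 15 transcription factors that act on the VEGF receptor genes, Sox17, a factor of arterial and barrier endothelium, was the 1 that passed. It read 8.32, 8.58, 8.50 and 8.45 in SAH and 8.96, 9.30, 9.35 and 9.12 in Sham (change -0.72, adjusted p = 0.00628). Its relatives Sox18 and Sox7 gave -0.42 and 0.57 and did not pass (adjusted p = 0.235 and 0.131). Erg, Fli1 and Ets1, the ETS factors of endothelium, gave -0.02, -0.22 and -0.19, with adjusted p-values of 0.967, 0.413 and 0.621.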

How the data were processed

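RNA of CD45-CD31+ BECs from 4 SAH and 4 Sham mice was hybridized to 1 array each after amplification. The authors normalized the arrays by RMA (oligo in R 3.2.2, per the submitters' processing notes), and the deposited values are log2 intensities of 41345 probe sets with no missing value. The labels number the animals as separate biological replicates. Of the probe sets, 25341 have a gene symbol in the platform annotation and were tested, 1820 of them with several symbols, from which no gene was named, and 16004 are unnamed here. Symbols were checked against RefSeq (GRCm38.p6), which also supplied the promoter windows.

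SAH and Sham were compared with limma 3.58.1 in R 4.3.3 (lmFit and eBayes, two-sided, Benjamini-Hochberg over the 25341 probe sets, threshold 0.05), in place of the methods' t-test, which was run as an alternative. Confidence intervals are for single probe sets and are not adjusted. Differences between members were tested by exact permutation. Of several probe sets of a gene, the one with the highest mean over the arrays stands for it. Arrays have no read depth, and their number limits the precision.

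All 9 members were named. So were list genes past the threshold, the largest changes of lists with fewer than 2 calls, defining markers, and the 5 genes most alike to Kdr, Vegfc and Pgf among genes above the median. Other list members given without a call (Cdh5, Nos3, Egr1, Egr3, Rcan1, Ccbe1, Adamts3, Epas1, Ptprb, Erg, Fli1, Ets1) were picked for their role after their values were seen. Rgs5, Ttr, Nr2f2, Ephb4 and Vcam1 were picked for their values. The members and lists were chosen with earlier results of these data known. Same-numbered arrays of the 2 groups did not deviate together (r from -0.062 to 0.032), so the numbers were not used as pairs in the main comparison. The limma scripts were tested on simulated data. Alternatives were other normalizations, filters, tests and blocks, and leaving out each array.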

Additional observations from a re-analysis of the deposited data

Results flagged for a closer look

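In 66 groups of 4 arrays, which cover the members and the pathway genes past the threshold, 4 held an array far from the rest, and chance alone marks about 1 group in 20. The value given is the gap to the nearest array as a share of the group's whole range. Plaur was highest on SAH replicate 1 at 9.95, against 9.28 for the next array (0.833). Mcam was lowest on Sham replicate 3 at 6.44, against 7.0 for the next (0.857), Plcg1 was lowest on Sham replicate 2 at 8.31, against 8.49 (0.838), and Icam1 was highest on Sham replicate 4 at 8.30, against 7.61 (0.853). None of the 9 VEGF ligand, receptor and neuropilin genes held such an array in either group.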

How the results depend on the processing

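No called change of a member turned its direction under any setting. The fall of Vegfc missed the threshold with 16 added to the linear intensity (-0.89, adjusted p = 0.0605), and over all 41345 probe sets (-1.06, 0.101) and with the methods' t-test (-1.06, 0.189), and lay between -1.27 and -0.91 with 1 array left out. That of Kdr missed it over all probe sets (-0.78, 0.0697) and with the methods' t-test (-0.78, 0.129), and lay between -0.88 and -0.70. The methods' t-test, rebuilt from its description and run on the probe sets tested here, which need not be those the authors tested, called 86 probe sets in all (0.339%), none of them a member. At a mean above the median Pgf (2.07, 0.0453) and Flt4 (0.46, 0.0458) passed, though Pgf entered that subset only through its SAH arrays. At a mean above log2 6 Flt4 passed (0.46, 0.0262). With 1 array left out Pgf ranged from 1.65 to 2.58 and Flt4 from 0.40 to 0.54.

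Members called higher thus numbered 2 above the median, where Pgf was let in by its SAH arrays, 1 above log2 6, and 0 to 1 with an array left out. Members called lower numbered 1 with 16 added, 0 over all probe sets or with the t-test, and 0 to 2 with an array left out. Pathway genes called higher and lower numbered 6 and 2 over all probe sets, 2 and 0 with the t-test, and 9 to 15 and 3 to 6 with an array left out. With an array left out the shifts of Kdr minus Flt1, Kdr minus Flt4 and Flt1 minus Flt4 ranged from -0.87 to -0.67, -1.36 to -1.12 and -0.57 to -0.41.

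With the replicate number as a block, Vegfc (-1.06, adjusted p = 0.0438) and Kdr (-0.78, 0.0113) passed, as they did over the 6 arrays whose animal number in the labels both groups share, with that number as the block (-1.29, 0.0243 and -0.97, 0.0382). The block by replicate number gave 627 calls in all and left 3 pathway genes lower, and that by label number gave 275 calls, 5 higher and 4 lower. The methods describe days on which usually 1 animal of each group was processed. Whether a shared number marks a shared day is not stated, and same-numbered arrays did not deviate together.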
